A study of Mus musculus with 32 samples.

Results

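Imprinted genes are transcribed from 1 parental copy only, and they were followed here across sorted mouse blood stem and progenitor cells with and without Jarid2. The group is a list of 40 gene symbols, of which 38 were matched by Ensembl ID to the 41388 genes listed for each library, while Snrpn and Peg13 were not matched and are given no value. RNA-seq was deposited for 24 libraries of C57BL/6 mice in 2 cohorts, sorted as haematopoietic stem cells (HSC; lineage-negative, cKit+, Sca1+, CD150+, CD48-) or multipotent progenitors (MPP; the same gate but CD150-). Mice of 8 weeks gave the 12 libraries of the Vav cohort, 3 each of Vav-CRE control HSC, Vav-CRE Jarid2-KO HSC, control MPP and Jarid2-KO MPP. Vav-CRE is a recombinase transgene active across blood cells, so the deletion was present from early blood development. Mice of 10 weeks, taken 2 months after pIpC had switched on Mx1-CRE, gave the 12 libraries of the Mx1 cohort. For HSC and for MPP there were 2 libraries each of control mice, of Jak2V617F mice and of mice that carried Jak2V617F together with Jarid2-KO, called the double mutant. Mx1-CRE acts in many tissues besides blood once induced. All groups of a cohort are labelled with the same CRE, controls included, and each library came from a pool of male and female mice, so p-values measure the spread between pools. For the Mx1 cohort the series' design text has a single Jarid2-KO group in place of Jak2V617F, and the groups used here are those of the sample labels. The ChIP samples of the series were not analysed here.

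Imprinting is laid down in the germ line as DNA methylation at control regions, and each control region sets the parental copy used by a cluster of neighbouring genes. Many paternally used genes, such as the growth factor gene Igf2, favour growth, and many maternally used ones, such as the non-coding RNA H19 and the adaptor gene Grb10, restrain it. In blood, H19, Igf2 and the non-coding RNAs of the Dlk1-Dio3 cluster are known from stem cells kept at rest. Jarid2 helps to bring Polycomb repressive complex 2, the enzyme that deposits H3K27me3, to its target genes. Jak2V617F is a kinase that signals without its cytokine receptors being engaged and drives myeloproliferative disease. The counts add both parental copies and cannot show which was transcribed.

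The sequences shown are small RNAs hosted by H19, Meg3 and Mirg and promoters of Meg3, Grb10 and Plagl1, members among those named in the Vav comparisons. H19 (ENSMUSG00000000031, chr7:142575529-142578143, minus strand, mm10) is the host of miR-675, Meg3 (ENSMUSG00000021268, chr12:109541001-109571726, plus strand) of Mir770 and Mir1906-1, and Mirg (ENSMUSG00000097391, chr12:109729764-109749460, plus strand) of 9 microRNA genes that lie within its exons. These host genes hold 22 mature microRNAs in the RefSeq table (GRCm38.p6), and all 22 have different seeds, so none could be grouped by a shared seed. The 2 arms from H19, 1 from Meg3 and 5 of the 17 from Mirg are printed 5′ to 3′ with the seed (bases 2 to 8) in capitals; the libraries measured the host transcripts and not the mature microRNAs.
mmu-miR-675-5p: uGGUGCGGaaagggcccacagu
mmu-miR-675-3p: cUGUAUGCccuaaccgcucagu
mmu-miR-770-5p: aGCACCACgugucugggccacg
mmu-miR-134-5p: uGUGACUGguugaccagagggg
mmu-miR-382-5p: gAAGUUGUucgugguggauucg
mmu-miR-377-3p: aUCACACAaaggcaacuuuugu
mmu-miR-410-3p: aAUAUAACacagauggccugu
mmu-miR-369-3p: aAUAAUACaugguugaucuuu

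The RefSeq promoter table holds windows of 300 bases (250 before the start and 50 after) for 33 of the members looked up, 49 windows in all, and none for H19. Those 49 windows had a median of 15 CpG dinucleotides against 7 in the 32851 windows of that length in the table. The hexamer TGCCGC, which the imprint-maintaining protein ZFP57 binds when methylated, was searched on both strands. It was found in 13 of the 49 windows (26.5%) and in 11.6% of all windows, so the members' windows held both more CpG and this hexamer more often; as a CpG-containing motif it was not corrected for CpG content. The first Meg3 window, the first Grb10 window and the Plagl1 window each hold the hexamer once and are printed with CpG in capitals (13, 45 and 26 CpG). They were chosen among windows that hold it: the second Meg3 window (1 CpG), the second Grb10 window (9 CpG) and the windows of Mirg (10 CpG) and Tssc4 (23 CpG) hold it 0 times. The first Grb10 window had more CpG than 98.1% of all windows.
Meg3 promoter, chr12:109540746-109541045, plus strand: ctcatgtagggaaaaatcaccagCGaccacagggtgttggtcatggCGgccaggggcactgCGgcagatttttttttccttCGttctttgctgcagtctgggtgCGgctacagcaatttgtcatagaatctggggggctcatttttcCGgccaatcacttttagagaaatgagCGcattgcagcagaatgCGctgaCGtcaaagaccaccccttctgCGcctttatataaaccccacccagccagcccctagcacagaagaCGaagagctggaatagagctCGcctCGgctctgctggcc
Grb10 promoter, chr11:12037371-12037670, minus strand: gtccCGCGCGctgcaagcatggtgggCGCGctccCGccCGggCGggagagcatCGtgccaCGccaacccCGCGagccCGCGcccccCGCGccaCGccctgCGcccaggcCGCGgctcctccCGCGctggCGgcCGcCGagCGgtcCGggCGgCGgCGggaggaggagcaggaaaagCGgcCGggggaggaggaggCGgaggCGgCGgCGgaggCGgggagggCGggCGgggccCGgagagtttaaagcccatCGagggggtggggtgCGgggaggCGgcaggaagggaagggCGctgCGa
Plagl1 promoter, chr10:13090582-13090881, plus strand: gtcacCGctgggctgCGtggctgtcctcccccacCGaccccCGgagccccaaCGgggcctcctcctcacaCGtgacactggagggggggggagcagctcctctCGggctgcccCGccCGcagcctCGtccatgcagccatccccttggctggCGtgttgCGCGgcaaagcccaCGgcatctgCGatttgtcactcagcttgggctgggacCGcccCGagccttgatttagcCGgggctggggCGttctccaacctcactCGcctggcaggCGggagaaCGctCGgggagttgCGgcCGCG

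Depth was 10473535 to 27232379 counts in the Vav libraries and 7852483 to 20724168 in the Mx1 libraries. In the Vav cohort Slamf1, which encodes the CD150 of the gate, was lower in control MPP than in control HSC (log2 -3.90, SE 0.46) and the progenitor gene Flt3 higher (log2 3.33, SE 0.38), and likewise in Jarid2-KO (-3.60, SE 0.45, and 3.15, SE 0.38). The listed HSC markers summed to 1427 to 1726 CPM (counts scaled to the library total) in 11 of the 12 libraries, HSC and MPP alike. Gene by gene, 7 of these 9 markers were lower and 2 higher in MPP in control (median log2 -0.98). The same numbers held in Jarid2-KO (median -0.51). Slamf1, Vwf and Ctnnal1 had an adjusted p under 0.05 by edgeR in both. The listed MPP and lymphoid-primed markers summed to 317 to 488 CPM in the HSC libraries. In MPP they summed to 1523 to 1738 CPM in control and 696 to 985 CPM in Jarid2-KO. The first Jarid2-KO MPP library stood apart, at 898 CPM of HSC markers, 22676 CPM of granulocyte-monocyte markers (1032 to 13226 in the other 11), 713 CPM of stroma and endothelium markers (152 to 278 in the others) and 1.82 CPM of Xist (191 to 376 in the others), although the labels' protocol names a pool of both sexes. Jarid2 itself had similar ranges under both labels (80.2 to 144 CPM in Vav KO, 77.6 to 126 in Vav control), and since counts over all exons still score an allele that lacks a few exons, this does not check the labels. Jak2 ran from 36.7 to 99.3 CPM in the Vav and from 18.6 to 58.8 CPM in the Mx1 libraries.

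In the Vav cohort imprinted genes differed widely in level, from Impact to genes without a count. Levels between genes are compared as RPKM (CPM per kilobase of gene length), as the mean over the 12 libraries. Impact, an inhibitor of the stress kinase GCN2, was highest at 119 RPKM (SD 35.2). It was followed by the sarcoglycan gene Sgce at 33.7 RPKM, Tssc4 at 27.1, Grb10 at 18.3, the transporter gene Slc22a18 at 15.1 and the ubiquitin ligase gene Ube3a at 14.8. The next levels in RPKM were 13.8 for Trappc9, 13 for the growth suppressor Ndn, 12.7 for Copg2, 11.4 for Phlda2, 7.27 for Igf2r, which clears IGF2 from the cell surface, 4.96 for Commd1, 3.95 for Kcnq1ot1 and 3.42 for Zrsr1. Among the genes near 1 RPKM, H19 had 1.22, Airn 1.11, Asb4 1.05 and Mkrn3 0.907. Sgce and Tssc4, with SD of 7.71 and 20.7, differed by less than their spread over libraries.

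The remaining members, among them the growth factor gene Igf2, had lower mean levels in these cells. Mean RPKM was 0.417 for Igf2, 0.281 for Gnas, 0.273 for Mest, 0.190 for Nnat, 0.140 for the zinc finger gene Plagl1, 0.0988 for Mirg, 0.0883 for Ascl2, 0.0708 for Zdbf2, 0.0699 for Peg10 and 0.0605 for Peg3. Below these came Meg3 (0.0233), Dio3 (0.0194), Rasgrf1 (0.0186), Zim1 (0.0112), Nap1l5 (0.0104), Usp29 (0.00868) and Magel2 (0.0060). Dlk1, Rian and Rtl1 had no count in any Vav library, while their cluster neighbours Meg3 and Mirg did. In all, 28 of the 38 members passed the filter on low counts and were tested. The filter used all 12 Vav libraries, so a gene could pass through a single group in which it was high. With only the groups compared, 23 members were tested for control MPP against HSC. For Jarid2-KO against control 26 were tested in HSC and 26 in MPP. Because the kit did not mark strand, genes that share exons on opposite strands cannot be told apart there: Mest and Copg2 share 22.9% and 20.1% of their exonic bases with each other, Gnas 22% with Nespas and Gm20721, and Tssc4 12.5% with Trpm5. Airn lies across Igf2r on the other strand, so unspliced Igf2r RNA could add to it.

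**Figure D1:**
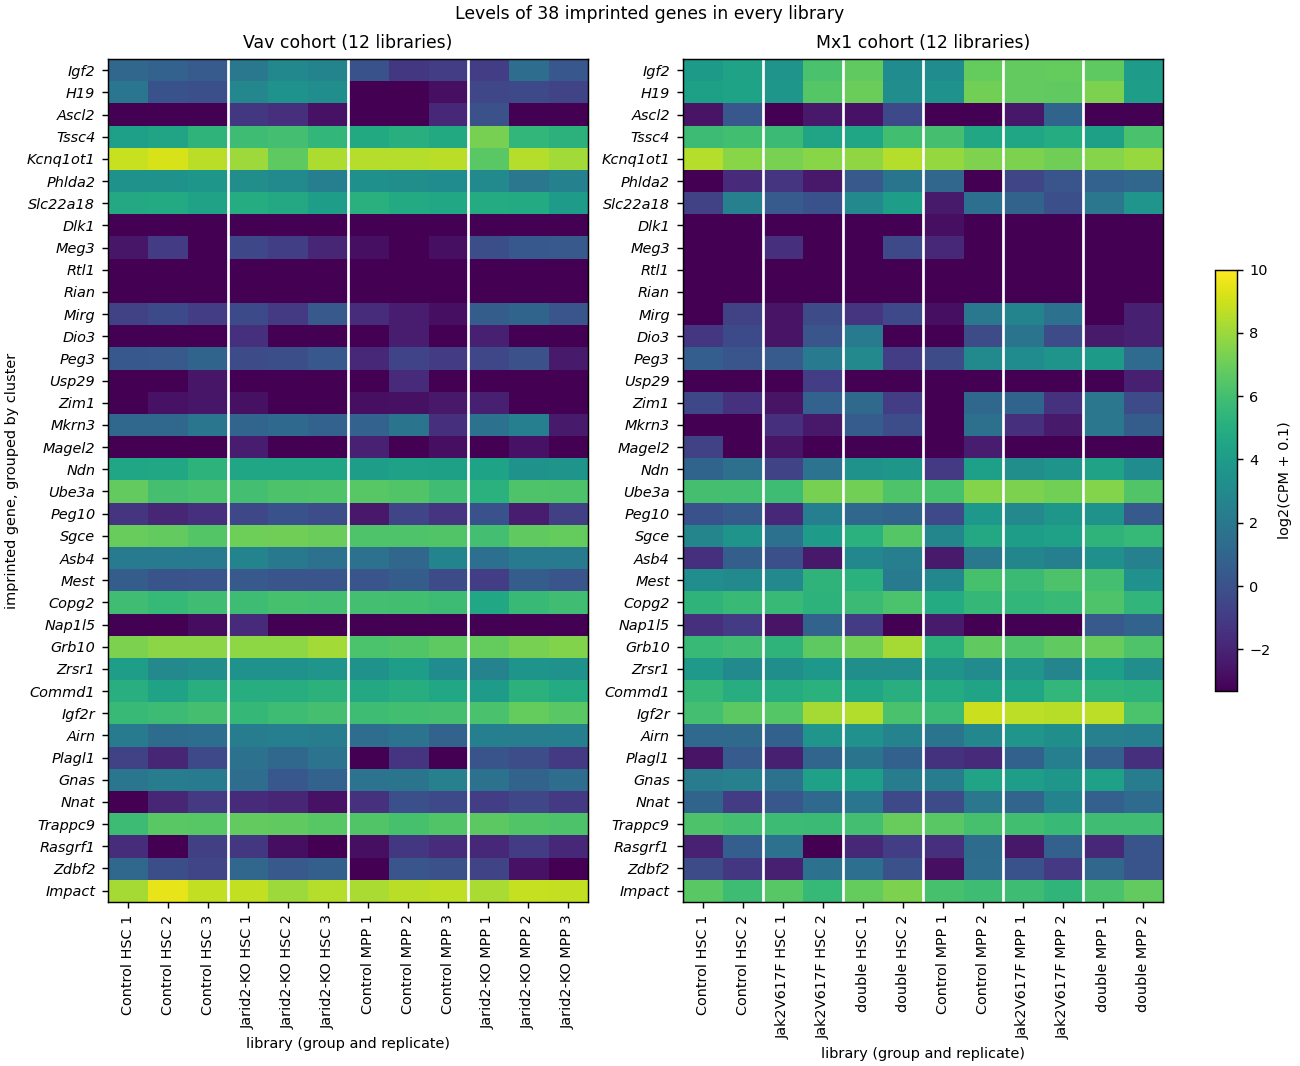
Levels of the 38 matched imprinted genes (rows, by cluster) in each of the 24 libraries (columns, by group and replicate, Vav left and Mx1 right) as log2(CPM + 0.1), dark for low and yellow for high. Impact, Kcnq1ot1 and Grb10 are bright throughout the Vav libraries, Rian and Rtl1 are at 0 everywhere, and on the Mx1 side 6 libraries are brighter for H19, Igf2 and Igf2r.

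The comparison of control MPP with control HSC asked how imprinted genes change as stem cells become progenitors. H19 and Grb10 fell. H19 counts in the control HSC libraries were 49, 16 and 23, and in the control MPP libraries 0, 0 and 1. The groups did not overlap, and H19 was nearly absent from MPP. On the CPM scale it stood at 1.79 ± 1.57 (SD, n = 3) in HSC and at 0.0147 ± 0.0255 in MPP (log2 fold change -6.38, SE 0.91, adjusted p = 0.00259). From the pooled counts of 88 and 1, the rate in HSC was 98.4 times that in MPP, with an exact 95% interval of 17.2 to 3931 that covers counting error only. Grb10 (ENSMUSG00000020176, chr11:11930508-12038683, minus strand), an adaptor that damps insulin and growth factor receptor signals, had 163, 209 and 202 CPM in HSC and 74.9, 84.3 and 104 CPM in MPP. Again no library of one group reached the other (191 ± 25.1 against 87.7 ± 14.8; log2 -1.18, SE 0.22, adjusted p = 0.0154). Without control HSC replicate 2, or without control MPP replicate 1 or 2, only H19 passed.

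No other member passed. Of 28 members, 2 passed, both lower, while 1.17% of all 15818 genes passed in either direction. The members' median log2 fold change was -0.38 against -0.02 over all genes, with 21 negative and 7 positive. Mirg (-2.18, SE 0.77), Peg3 (-1.96, SE 0.71), Igf2 (-1.62, SE 0.60) and Ndn (-0.66, SE 0.28) had adjusted p-values of 0.308, 0.334, 0.349 and 0.483. In 8 of 28 members (28.6%) all control MPP libraries were below all control HSC libraries, and in 0 above them; over all genes those shares were 7.69% and 10.7%. Of 22 other imprinted genes tested, 1 passed, the cell cycle inhibitor Cdkn1c, which was lower in MPP (-1.80, SE 0.36, adjusted p = 0.026), and of 12 imprint maintenance factors none did by edgeR, 0 of them at an unadjusted p under 0.05. Of all 15818 genes 1335 had an unadjusted p under 0.05.

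In Jarid2-KO cells H19 fell from HSC to MPP as well. It stood at 6.97, 11.5 and 9.0 CPM in KO HSC and at 0.627, 0.668 and 0.573 CPM in KO MPP. The 3 MPP values lay close together and far below the HSC values (9.17 ± 2.28 against 0.623 ± 0.0478, n = 3 each; log2 -3.85, SE 0.62, adjusted p = 0.0105). It was the only 1 of 28 members to pass, against 0.525% of all genes. The next members were Igf2 (-2.07, SE 0.58, adjusted p = 0.171), Igf2r (0.72, SE 0.20, adjusted p = 0.172), Grb10 (-0.65, SE 0.21, adjusted p = 0.252) and Zdbf2 (-2.80, SE 1.18, adjusted p = 0.390). The libraries did not overlap in 7 members that were lower in MPP (25.0%) and 3 that were higher (10.7%), where 6.87% and 4.88% of all genes did. No other imprinted gene and no maintenance factor passed by edgeR (3 of 22 and 1 of 12 had an unadjusted p under 0.05). Of all 15818 genes 1716 had an unadjusted p under 0.05. Without the first KO MPP library 2 members passed, H19 (-3.89) and Igf2r (0.86), of 0.832% of all genes; without KO HSC replicate 2 none did.

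The comparison of Jarid2-KO with control HSC asked what loss of Jarid2 changes in stem cells. No imprinted gene passed the test in this comparison, and the nearest was H19. H19 had 3.60, 0.931 and 0.845 CPM in control HSC and 6.97, 11.5 and 9.0 CPM in KO HSC. Every KO library lay above every control library (1.79 ± 1.57 against 9.17 ± 2.28; log2 2.32, SE 0.57, adjusted p = 0.0867). Its neighbour Igf2 (ENSMUSG00000048583, chr7:142650766-142666816, minus strand) had 1.98, 1.75 and 1.32 CPM in control and 3.89, 7.35 and 6.44 CPM in KO. These groups also did not overlap (1.68 ± 0.335 against 5.89 ± 1.80; log2 1.74, SE 0.57, adjusted p = 0.168). Plagl1 (ENSMUSG00000019817, chr10:13090691-13131694, plus strand), a zinc finger factor that in mouse activates other imprinted genes, stood at 0.514, 0.175 and 0.661 CPM in control and at 3.19, 2.05 and 3.22 CPM in KO. Its libraries were likewise apart (log2 2.56, SE 0.88, adjusted p = 0.178). Gnas, which encodes the stimulatory G protein subunit, was the member with the smallest p in the other direction (4.26 ± 0.673 CPM in control, 1.81 ± 0.735 in KO; log2 -1.31, SE 0.44, adjusted p = 0.174).

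In total 0 of 28 members passed by edgeR and 6 had an unadjusted p under 0.05. Of all 15818 genes 0.569% passed, and 2695 had an unadjusted p under 0.05. The median over members was 0.06 and over all genes -0.03 on the log2 scale, and 14 members were positive and 14 negative. The 14 maternally used members had a median of 0.14 and the 14 paternally used ones of -0.10. In 8 members (28.6%) every KO library was above every control library and in 4 (14.3%) below, against 16.2% and 10.7% of all genes. By the Wald test of DESeq2, H19, Igf2 and Plagl1 passed, 3 of 28 where 4.36% of all genes did. Without the first KO MPP library, which belongs to neither group but shares the estimate of spread, H19, Igf2, Tssc4 (log2 1.02) and Kcnq1ot1 (-1.14) passed, where 5.05% of all genes did; without control HSC replicate 1, H19 did. Among 22 other imprinted genes and 12 maintenance factors 0 passed by edgeR (5 and 3 at an unadjusted p under 0.05).

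Markers of other cell types were also measured in these libraries. The 13 stroma and endothelium markers summed to 152 to 178 CPM in KO HSC and 157 to 234 CPM in control HSC. Of these, 11 to 13 were detected in the KO and 10 to 13 in the control libraries. In control, Lepr, Cdh5 and Pdgfra were at 0 in replicate 1 and Dcn in replicate 3. In KO, Lepr and Dcn were at 0 in replicate 2 and Col3a1 and Dcn in replicate 3. Of the 12 tested, 4 had a positive and 8 a negative log2 fold change (median -0.32), and 3 had an unadjusted p under 0.05. The 10 granulocyte-monocyte markers, all detected in every library, summed to 2918 to 8411 CPM in KO and 1032 to 3431 CPM in control HSC. Of these, 10 of 10 were positive (median 1.14) and 7 had an unadjusted p under 0.05 by edgeR. The part of either list in the result was not tested. In bulk libraries fewer cells of a type and less RNA per cell cannot be told apart.

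**Figure D2:**
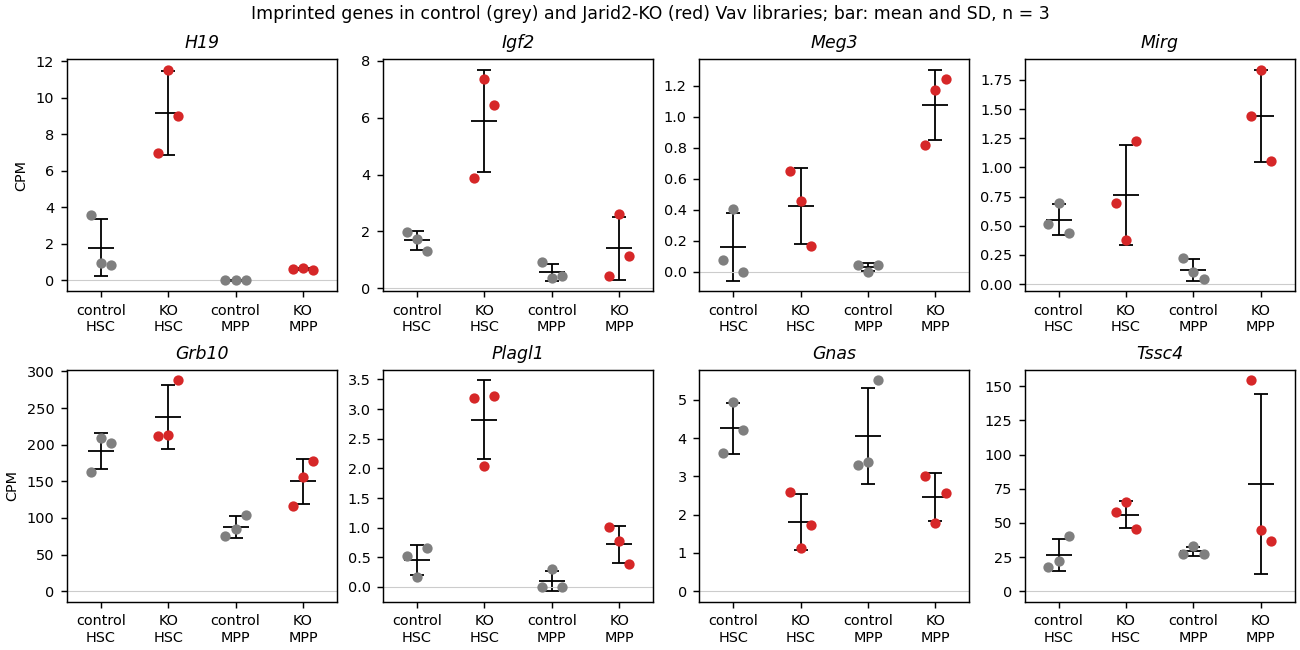
CPM (y axis) of 8 imprinted genes in each Vav library, by group (x axis; control grey, Jarid2-KO red, 3 libraries each), with mean and SD as bars. H19 and Igf2 are highest in the 3 KO HSC libraries, Meg3 and Mirg in the 3 KO MPP libraries, and the Tssc4 mean of KO MPP rests on 1 library.

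The same comparison in MPP gave 2 changed members, H19 and Mirg, both higher in Jarid2-KO and both maternally used non-coding RNAs. H19 counts were 0, 0 and 1 in control MPP and 10, 12 and 6 in KO MPP. These are small counts, but each KO library had more than the 3 control libraries together. On the CPM scale H19 stood at 0.0147 ± 0.0255 in control and 0.623 ± 0.0478 in KO (n = 3 each; log2 4.84, SE 0.97, adjusted p = 0.0318), and the ratio of pooled rates was 40.9 with an exact 95% interval of 6.77 to 1674 for counting error only. In KO MPP it stayed below its level in control HSC. Mirg, the host of 5 of the microRNAs printed above, had 5, 2 and 1 counts in control MPP and 23, 33 and 11 in KO MPP. No library overlapped (0.123 ± 0.0936 against 1.44 ± 0.394 CPM; log2 3.5, SE 0.77, adjusted p = 0.0473; ratio of pooled rates 12.2, interval 5.87 to 29.5).

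Meg3, the first non-coding RNA of the same cluster, had 1, 0 and 1 counts in control MPP and 13, 21 and 13 in KO MPP. The 3 KO libraries stood apart from the controls (0.0298 ± 0.0258 against 1.07 ± 0.228 CPM), yet the test was not passed (log2 4.86, SE 1.25, adjusted p = 0.0798; ratio of pooled rates 34.4, interval 9.0 to 292). Meg3 passed the filter on low counts only through these KO MPP libraries. Its pooled counts were 47 there, 27 in KO HSC, 8 in control HSC and 2 in control MPP. Its separation here is therefore not independent of the filter. Rian, which lies between Meg3 and Mirg, had no count. Grb10 stood at 74.9, 84.3 and 104 CPM in control and at 116, 156 and 177 CPM in KO MPP. Its groups did not overlap either (log2 0.77, SE 0.21, adjusted p = 0.095). For Tssc4 the log2 value was 1.46 (SE 0.45, adjusted p = 0.117), but its KO values of 154, 44.5 and 37.0 CPM rest on the first library, without which the fold change was 0.47. Airn, the non-coding RNA that silences Igf2r in cis, had 1.06 (SE 0.35, adjusted p = 0.137).

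Across the list 2 of 28 members passed by edgeR and 9 had an unadjusted p under 0.05. Of all 15818 genes 0.948% passed, and 3055 had an unadjusted p under 0.05. The median was 0.12 over members and 0.02 over all genes, with 17 positive and 11 negative. By active copy, 2 of 14 maternally used and 0 of 14 paternally used members passed, with medians of 0.09 and 0.17. In 8 members (28.6%) the KO libraries were all above the controls and in 3 (10.7%) all below, against 9.07% and 12.6% of all genes. DESeq2 passed 7 of 28 members, all higher (H19, Mirg, Meg3, Grb10, Tssc4, Airn and Plagl1), where 7.01% of all genes passed. In the second group of genes, 0 of 22 other imprinted genes passed by edgeR (8 at an unadjusted p under 0.05). None of 12 maintenance factors passed either (4 at an unadjusted p under 0.05); among them Zfp57, chosen after its values were seen, had 27.7 CPM in control and 8.53 CPM in KO MPP (log2 -1.70, SE 0.47, adjusted p = 0.0933).

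Both calls were close to the threshold. Without the first KO MPP library 1 member passed, H19 (log2 4.83, adjusted p = 0.0422), where 0.935% of all genes did. None passed without any 1 of control MPP replicates 1, 2 and 3, KO MPP replicate 2 and KO HSC replicates 1 and 3 (0 of the members tested each time), and H19 alone without any 1 of control HSC replicates 1, 2 and 3 and KO HSC replicate 2. Without KO MPP replicate 3 there were 3, H19, Mirg and Tssc4. Neither passed when only the 6 MPP libraries were fitted (adjusted p = 0.163 for H19 and 0.158 for Mirg). The stroma and endothelium markers summed to 713, 240 and 184 CPM in the 3 KO MPP libraries and 224 to 278 CPM in control MPP, with 11 to 13 and 12 to 13 of 13 detected; Cxcl12 and Col4a1 passed as higher and Pecam1 as lower. Of the 12 tested, 10 had a positive log2 fold change (median 2.01) and 7 an unadjusted p under 0.05, and 13, 8 and 10 of the 13 reached 1 CPM in the KO libraries against 4, 8 and 5 in control. In the same 3 KO libraries H19 stood at 0.627, 0.668 and 0.573 CPM and Meg3 at 0.815, 1.17 and 1.24 CPM. The granulocyte-monocyte markers summed to 5867 to 22676 CPM in KO and 4420 to 5922 CPM in control MPP. Of these, 10 of 10 were positive (median 1.23) and 8 had an unadjusted p under 0.05 by edgeR. The MPP and lymphoid-primed markers summed to 696 to 985 CPM in KO and 1523 to 1738 CPM in control MPP. Of the 7 tested, 5 had a negative and 2 a positive log2 fold change (median -0.76). By edgeR 4 had an unadjusted p under 0.05, and Dntt and Satb1 passed as lower. Of the 9 HSC markers tested, 5 were positive and 4 negative (median 0.55), and 4 had an unadjusted p under 0.05 by edgeR. The part of these lists in the result was not tested.

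Whether the Jarid2 effect differed between MPP and HSC was tested directly, and no member differed past the threshold. Of 28 members 0 passed by edgeR (3 at an unadjusted p under 0.05), as did 0% of all 15818 genes (419 at an unadjusted p under 0.05). Mirg had the smallest p, with an effect larger by 3.12 on the log2 scale in MPP (SE 1.02, adjusted p = 1.00). Igf2r (0.66, SE 0.29), H19 (2.53, SE 1.15) and Meg3 (3.51, SE 1.66) followed, each also with an adjusted p of 1.00. The comparisons within HSC and within MPP share no library, while the MPP against HSC comparisons share libraries with them.

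**Figure D3:**
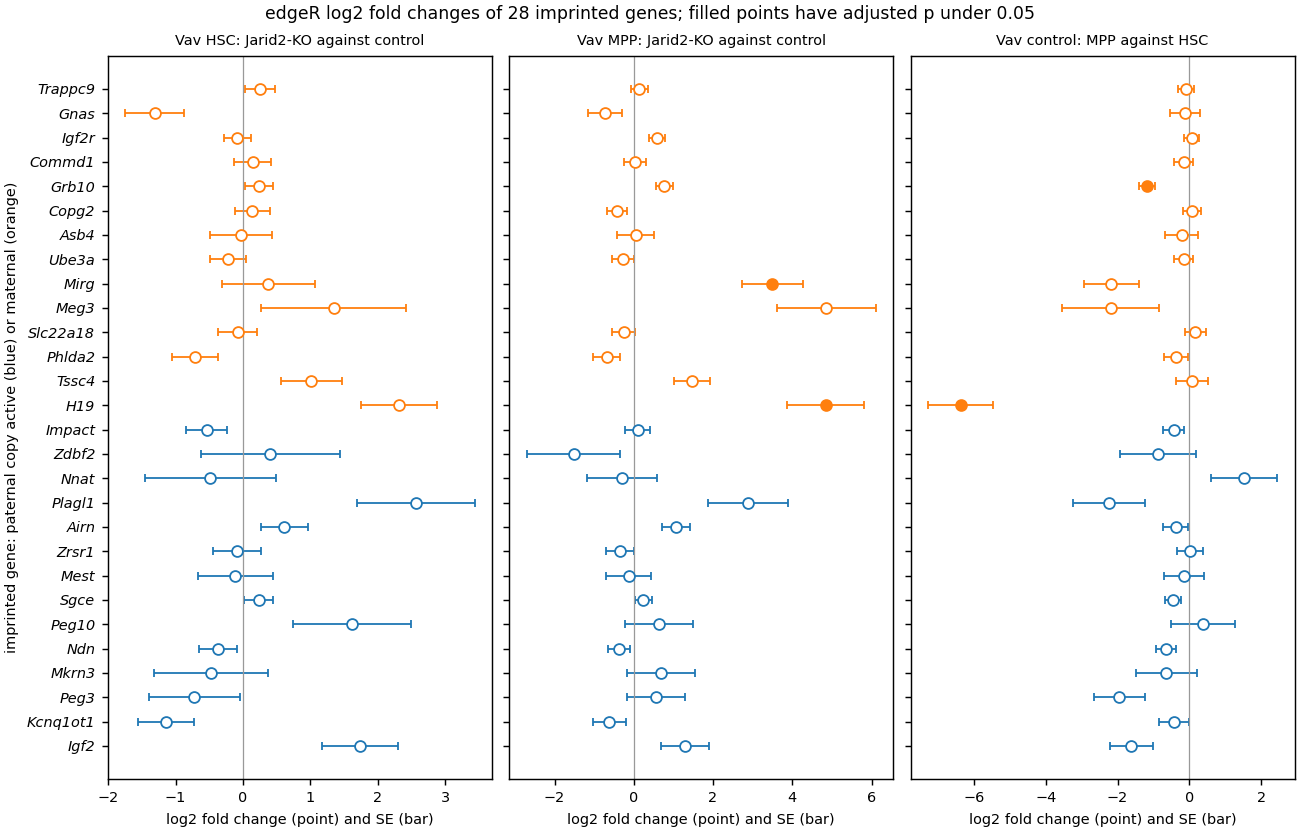
Log2 fold changes (points) with SE (bars) of the 28 tested imprinted genes in 3 Vav comparisons, with paternally used genes in blue and maternally used genes in orange; filled points have an adjusted p under 0.05. The filled points are H19 and Mirg in MPP for Jarid2-KO and H19 and Grb10 for control MPP against HSC, and the x axes differ between panels.

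The Mx1 libraries went against their labels in 2 ways. First, 20 heart muscle genes took 6.43% to 9.82% of counts in 6 libraries (control MPP replicate 2, Jak2V617F HSC replicate 2, both Jak2V617F MPP, double mutant HSC replicate 1 and double mutant MPP replicate 1) and 0.564% to 1.29% in the other 6, against 0.00772% to 0.0182% in the Vav cohort. Second, the listed HSC markers summed to only 130 to 262 CPM in all control and Jak2V617F libraries, HSC and MPP alike, where granulocyte-monocyte markers reached 18302 to 77384 CPM. The double mutant libraries had 577 to 1323 CPM of HSC markers and 2627 to 6608 CPM of granulocyte-monocyte markers. The stroma and endothelium markers, all 13 detected in every Mx1 library, summed to 3778 to 5338 CPM in the 6 libraries rich in heart genes and 474 to 884 CPM in the others.

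Of 32 members, 23 overlapped between the libraries rich in heart genes and the others, 8 were higher in all of the former and 1 was lower. H19 had 89.8 to 164 CPM in the 6 libraries rich in heart genes (median 119) and 9.30 to 20.9 CPM in the other 6 (median 15.2). Igf2 ran from 72.7 to 116 CPM in the first and from 8.75 to 20.2 CPM in the second. Mest, a paternally used hydrolase gene, ran from 36.2 to 76.3 and from 4.21 to 10.7 CPM, and Igf2r from 295 to 482 and from 54.1 to 101 CPM. In none of these did the 2 sets overlap, although each holds control, Jak2V617F and double mutant libraries. The 8 higher members were H19, Igf2, Mest, Igf2r, Peg10, Peg3, Gnas and Ube3a, a share of 25.0% against 16.5% of all 19616 genes. Tssc4 alone was lower (18.9 to 30.1 against 54.1 to 72.1 CPM), 1 of 32 against 9.67% of all genes. The sets were defined from the heart list and are not groups of the study.

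**Figure D4:**
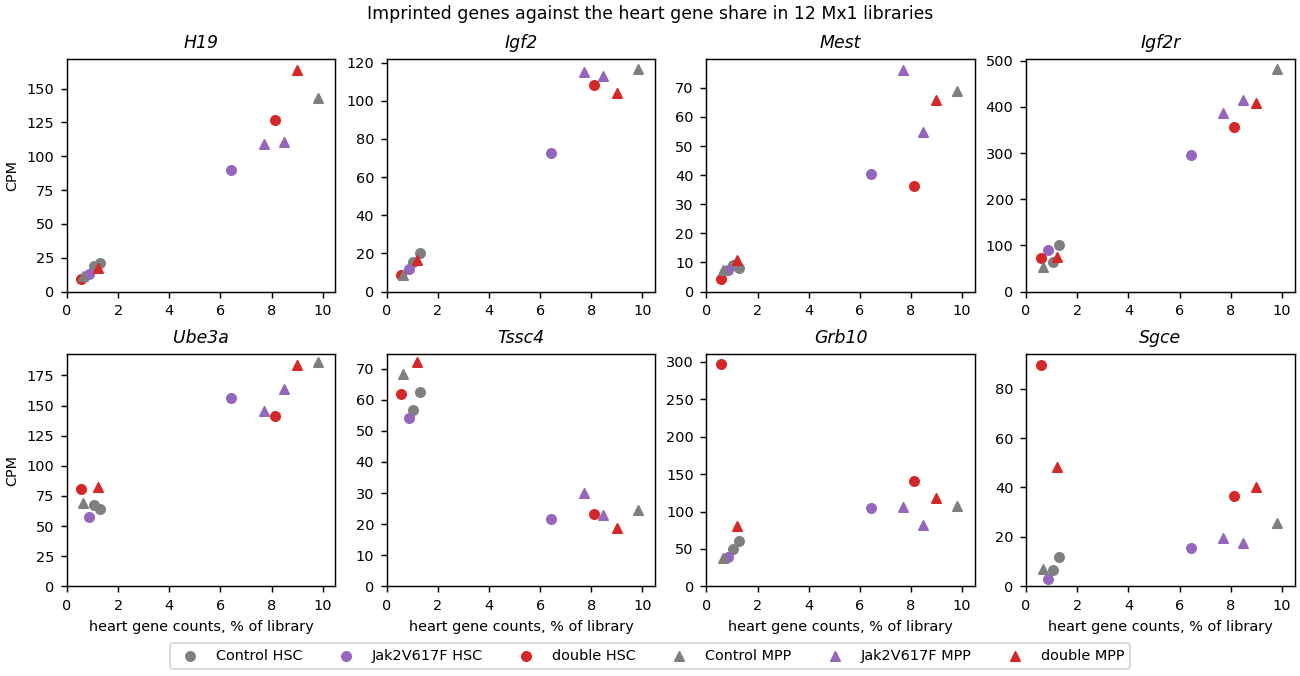
CPM of 8 imprinted genes (y axis) against the share of counts in 20 heart muscle genes (x axis, percent) in the 12 Mx1 libraries, with circles for HSC, triangles for MPP and colours for genotype (control grey, Jak2V617F purple, double mutant red). H19, Igf2, Mest, Igf2r and Ube3a are higher and Tssc4 lower in the 6 libraries above 6% for every genotype, while the highest Sgce and Grb10 values belong to a double mutant HSC library with a low share.

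Mean levels in the Mx1 cohort ordered the members otherwise than in the Vav cohort. H19 was highest at 29.3 RPKM (SD 25.2, n = 12), then Igf2r at 24.7, Tssc4 at 24.5, Impact at 23.9, Ube3a at 22.9, Copg2 at 11.3, Grb10 at 11.2, Trappc9 at 11.0, Igf2 at 10.3, Sgce at 8.68, Mest at 8.25, Commd1 at 5.66 and Ndn at 5.12. This order mixes both sets of libraries: by the median over libraries Tssc4 came first (23.9 RPKM) and H19 next (23.3 RPKM), and H19 had medians of 119 and 15.2 CPM, Tssc4 of 23.1 and 62.2 CPM, in the 6 libraries rich in heart genes and the other 6. Between 1 and 4 RPKM lay Zrsr1 (3.35), Slc22a18 (2.66), Kcnq1ot1 (2.61), Airn (1.82), Phlda2 (1.4), Nnat (1.22) and Gnas (1.03). Mean RPKM was lower still for Asb4 (0.997), Peg10 (0.732), Dio3 (0.474), Peg3 (0.395), Mkrn3 (0.357), Zim1 (0.326), Nap1l5 (0.267), Plagl1 (0.204), Ascl2 (0.203), Mirg (0.180), Zdbf2 (0.0988) and Rasgrf1 (0.0816). Usp29 (0.0177), Magel2 (0.0124), Meg3 (0.00509) and Dlk1 (1 count in all) were at the edge of detection, and Rian and Rtl1 had no count. Sgce, Phlda2 and Slc22a18, well expressed in the Vav cells, had lower means here; the cohorts were fitted apart, so this was not tested.

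No imprinted gene passed in any of the 5 Mx1 comparisons by edgeR, in each of which 0% of the 19616 genes passed (264 to 919 had an unadjusted p under 0.05). For Jak2V617F against control, which asked what the kinase variant changes, 0 of 32 members had an unadjusted p under 0.05 in HSC or in MPP. The smallest p-values in HSC belonged to Mkrn3 (log2 4.29, SE 2.63), Kcnq1ot1 (-0.77, SE 0.55), Airn (1.43, SE 1.02) and Ascl2 (-3.64, SE 2.76). In MPP they belonged to Ascl2 (6.6, SE 3.19), Plagl1 (3.58, SE 1.90), Trappc9 (-0.68, SE 0.47) and Mkrn3 (-3.01, SE 2.24). All these had an adjusted p of 1.00, and several rest on a handful of counts, such as Mkrn3 with none in the control HSC libraries and 4 and 1 in Jak2V617F HSC. For control MPP against HSC the first 4 were Mkrn3 (7.20, SE 2.86), Ascl2 (-5.98, SE 3.11), Peg10 (2.56, SE 1.59) and Mest (1.99, SE 1.26), each with an adjusted p of 0.843; for Peg10 and Mest the value turned slightly negative with a term for the heart-rich libraries (-0.03 and -0.09).

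The double mutant was compared with Jak2V617F to ask what loss of Jarid2 adds. In HSC, Sgce had 3.09 and 15.6 CPM in Jak2V617F and 36.5 and 89.7 CPM in the double mutant. Grb10 had 39.8 and 105 CPM in Jak2V617F and 141 and 298 CPM in the double mutant. Both were higher in each double mutant library, and neither passed (log2 2.51, SE 0.80, adjusted p = 0.502 for Sgce and log2 1.34, SE 0.60, adjusted p = 1.00 for Grb10). Within the heart-rich libraries the pairs were 15.6 and 36.5 CPM for Sgce and 105 and 141 CPM for Grb10, and within the others 3.09 and 89.7 and 39.8 and 298 CPM. With a term for the heart-rich libraries both passed (log2 2.81, adjusted p = 0.0164, and log2 1.54, adjusted p = 0.0285), 2 of 32 members where 2.75% of all genes did. The HSC markers summed to 584 and 1323 CPM in these double mutant libraries and to 156 and 243 CPM in the Jak2V617F libraries, in the same order as Sgce and Grb10 in the double mutant; their part was not tested.

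Asb4 (log2 3.38, SE 1.61) and Slc22a18 (3.15, SE 1.51) came next in HSC, each with an adjusted p of 1.00. In MPP the smallest p-values belonged to Mirg (-6.18, SE 2.59), Nap1l5 (7.15, SE 3.06), Ascl2 (-6.6, SE 3.34) and Slc22a18 (2.51, SE 1.48), again with an adjusted p of 1.00. Mirg had 76 and 33 counts in Jak2V617F MPP and 0 and 1 in the double mutant, the opposite order to that in the Vav MPP, where the KO libraries were higher. The cohorts were not tested against each other. Heart genes took 8.47% and 7.70% of counts in these Jak2V617F libraries and 8.99% and 1.19% in the double mutant. Mirg overlapped between the libraries rich in heart genes and the others, with medians of 1.92 and 0.0946 CPM. The part of the heart share in the Mirg values was not tested. H19 and Igf2, which were among the members apart in Vav HSC, had 127 and 9.30 CPM and 108 and 8.75 CPM in the double mutant HSC libraries. Heart genes took 8.12% and 0.564% of counts in these 2 libraries. The stroma and endothelium markers summed to 4818 and 492 CPM there and the HSC markers to 584 and 1323 CPM. The part of these lists in the H19 and Igf2 values was not tested. Plagl1, also apart in Vav HSC, overlapped between the libraries rich in heart genes (0.216 to 5.29 CPM) and the others (0.0653 to 1.66 CPM). Of 25 other imprinted genes and 13 maintenance factors 0 passed by edgeR in any Mx1 comparison, with 0 to 2 and 0 to 1 at an unadjusted p under 0.05.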

How the data were processed

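Each of the 24 RNA-seq libraries (SMARTer Ultra Low kit, per the labels' protocols) had 1 deposited table. Per the file headers, the deposited columns are the count per gene, CPM (counts scaled to the library total) and RPKM (CPM per kilobase of gene length). The submitters' processing notes name mm10, Partek 6.6, HTSeq 0.8.0, featureCounts 1.4.5, Subread and STAR 2.0.4, without their roles. The members and gene lists were chosen with earlier results of these data known. Each cohort was fitted apart in edgeR 4.0.16 (R 4.3.3): filterByExpr (minimum count 10, total 15), TMM, robust quasi-likelihood F tests and Benjamini-Hochberg adjustment over all genes at 0.05. This left 15818 Vav genes (28 members, 8 residual degrees of freedom) and 19616 Mx1 genes (32 members, 6 residual degrees of freedom). SE is the log2 fold change over the square root of F. Levels are means ± SD of CPM. The script was tested on simulated data. Named in each comparison were all members past the threshold and the 4 others of smallest p; further genes were chosen after their values were seen. Ratios of pooled counts have exact conditional 95% intervals. Alternatives were DESeq2 1.42.0 (test or size factors), limma-voom (limma 3.58.1), other filters, blocks, only the groups compared, a term for libraries with over 4% heart counts, and leaving out each library. The labels do not state that same-numbered libraries are paired, so numbers were not taken as pairs. In the Vav cohort the deviations of same-numbered HSC and MPP libraries of a genotype correlated by a median of 0.0822. For same-numbered libraries of other genotypes the median was -0.109. With 2 libraries a group in the Mx1 cohort, both numbers give the same value, so these correlations do not settle pairing.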

Additional observations from a re-analysis of the deposited data

How the results depend on the processing

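Over 590 recomputed log2 fold changes of named members, 536 kept their direction and their side of the threshold, 31 moved past it, 17 lost it and 6 reversed. This total includes members that did not pass at first and so could not lose the threshold. Of those that passed, H19 stayed past it in 7 of 13 and Mirg in 6 of 13 for Jarid2-KO against control MPP. For control MPP against HSC, H19 stayed past it in 14 of 14 and Grb10 in 11 of 14. In Jarid2-KO, H19 stayed past it in 13 of 14. The number of members past the threshold changed as follows. In Jarid2-KO against control HSC (0) it was 4 with no filter, 3 by DESeq2, 5 by limma-voom and 3 with only the groups compared, and 0 to 4 leaving out 1 library. In MPP (2) it was 6 with no filter, 7 by DESeq2, 5 by limma-voom and 0 with only the groups compared, and 0 to 3 leaving out 1 library. For MPP against HSC in Jarid2-KO (1) it was 2 with no filter, 3 by DESeq2, 2 by limma-voom and 0 to 2 leaving out 1 library, and in control (2) 4 by limma-voom and 1 to 2. In double mutant against Jak2V617F HSC (0) it was 2 with the heart term, where 2.75% of all genes passed. The share of all genes past the threshold moved too. For Jarid2-KO against control it went from 0.569% to 4.36% in HSC and from 0.948% to 7.01% in MPP by DESeq2. Without the first KO MPP library it was 5.05% in HSC and 0.935% in MPP. For no filter, limma-voom and only the groups compared no such share is given beside the number of members. The cause of these changes was not tested. The replicate number as a block gave 0 members in Jarid2-KO against control MPP and changed no other count of members past the threshold; same-numbered libraries of a genotype correlated by -0.00907 to 0.299 in their deviations in the Vav cohort and by -0.0157 to 0.523 in the Mx1 cohort. Reversed values were, for control MPP against HSC in the Mx1 cohort, Peg10 at -0.0298 and Mest at -0.0937 with the heart term. Leaving out 1 library moved them over -0.62 to 3.54 and -0.20 to 2.89, and for Jak2V617F against control it moved Airn in HSC over -0.47 to 2.22 and Mkrn3 in MPP over -4.03 to 4.24; each lowest value of the first 3 and the highest of Mkrn3 came without control MPP replicate 2 or, for Airn, Jak2V617F HSC replicate 2. Low counts limit H19, Meg3 and Mirg in MPP, and 2 libraries a group limit the Mx1 comparisons.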
